A study of Mus musculus with 33 samples.

Results

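The nucleus accumbens, a region of the ventral striatum that takes part in reward and motivation, was compared between germ-free (GF) mice and mice that drank antibiotics (Abx), both given saline. The comparison uses 12 of the 33 bulk RNA sequencing libraries of the series, 6 GF saline and 6 Abx saline, chosen by the group that their labels name. Each library stands for 1 mouse. GF mice, labelled as having no microbiome, were C57BL/6J animals bred at the institution, kept in isolators on sterilised food and water, and matched in age to the others. Abx mice, labelled as having a depleted microbiome, were conventionally raised C57BL/6J mice of 7 to 9 weeks from a commercial supplier. Their drink held neomycin at 2 mg/mL, vancomycin and bacitracin at 0.5 mg/mL each, and the antifungal pimaricin at 1.2 µg/mL, from 2 weeks before the procedures until the end. The same contrast was available in 5 GF morphine and 5 Abx morphine mice, given 20 mg/kg per day for 7 days, and 6 saline mice with a normal microbiome that drank water (H2O saline) give the level of a gene where it is of use. Neither the sex of the mice, nor their cages, nor a batch or sequencing date is given in the labels. Breeding colony, housing, sterilised food, drink and the history of the microbiome all differ between GF and Abx mice and cannot be told apart.

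A germ-free animal has lived without microbes since birth, whereas oral antibiotics deplete a community that was present until adulthood, so both are used as models of a missing microbiome with unlike histories. Microbial products such as short-chain fatty acids, and hormones and immune signals that the microbiome influences, are known to reach the brain. Several of the genes with the smallest p here code for proteins that fold other proteins. Heat-shock factors bind heat-shock elements in the promoters of genes of cytosolic chaperones and switch these genes on. In the endoplasmic reticulum (ER), misfolded protein sets off the unfolded protein response, whose factors ATF6 and XBP1 act through ER stress elements in the promoters of ER chaperone genes, while a separate branch acts through ATF4 and its target Ddit3. Cold-inducible RNA-binding proteins run the other way: they are made when the temperature falls.

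The printed promoters are those of 4 genes of this kind that were among the most clearly changed here. They were picked from the genes whose promoter holds such an element, and show where it lies. Other clearly changed genes of this kind, such as Xbp1 and Hspa4l, were not among those with a match. Sequences and positions are those of RefSeq in build GRCm38.p6, written 5′ to 3′ along the gene's own strand, from 250 bases before to 50 bases after the start of the transcript. Capitals mark the ER stress element (CCAAT, 9 bases of any kind, CCACG) in the first 3 and overlapping heat-shock elements (GAA, TTC and GAA, or TTC, GAA and TTC, each 2 bases apart) in the last, searched on both strands.
Hspa5, chr2:34771840-34772139, plus strand: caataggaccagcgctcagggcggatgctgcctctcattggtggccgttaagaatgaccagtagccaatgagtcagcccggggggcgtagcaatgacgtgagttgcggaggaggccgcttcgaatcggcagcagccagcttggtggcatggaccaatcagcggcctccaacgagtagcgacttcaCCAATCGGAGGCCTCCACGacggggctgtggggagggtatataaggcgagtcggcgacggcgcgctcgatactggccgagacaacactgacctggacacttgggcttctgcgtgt
Pdia6, chr12:17266339-17266638, plus strand: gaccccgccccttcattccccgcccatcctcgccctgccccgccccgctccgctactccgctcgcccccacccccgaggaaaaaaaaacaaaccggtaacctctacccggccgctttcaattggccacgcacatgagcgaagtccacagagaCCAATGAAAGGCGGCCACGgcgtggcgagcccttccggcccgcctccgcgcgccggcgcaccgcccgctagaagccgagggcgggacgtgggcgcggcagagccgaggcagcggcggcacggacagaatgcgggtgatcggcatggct
Hsp90b1, chr10:86705395-86705694, minus strand: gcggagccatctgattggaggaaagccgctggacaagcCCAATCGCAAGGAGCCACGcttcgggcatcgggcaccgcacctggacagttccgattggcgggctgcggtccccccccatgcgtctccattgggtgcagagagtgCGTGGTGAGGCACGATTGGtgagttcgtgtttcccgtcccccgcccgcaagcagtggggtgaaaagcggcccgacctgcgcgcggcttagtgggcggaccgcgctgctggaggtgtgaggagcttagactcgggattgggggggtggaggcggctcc
Chordc1, chr9:18292017-18292316, plus strand: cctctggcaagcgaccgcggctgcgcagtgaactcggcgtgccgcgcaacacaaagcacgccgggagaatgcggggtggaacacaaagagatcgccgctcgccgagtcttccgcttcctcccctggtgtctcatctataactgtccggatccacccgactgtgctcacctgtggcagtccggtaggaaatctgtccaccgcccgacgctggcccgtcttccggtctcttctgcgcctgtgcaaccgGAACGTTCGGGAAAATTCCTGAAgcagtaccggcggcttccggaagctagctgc
The Hspa5 and Pdia6 windows each hold 1 ER stress element, and that of Hsp90b1 holds 2, the second on the opposite strand. The Chordc1 window holds 3 overlapping heat-shock elements in 1 run. Among 27025 genes with a promoter in the table, 37 (0.137%) had an ER stress element and 179 (0.662%) a heat-shock element. In the ER chaperone list described below, 10 of 34 genes with a promoter (29.4%) had an ER stress element, and 8 of its 17 members that rose (47.1%). In the cytosolic heat-shock list 4 of 24 (16.7%) had a heat-shock element, namely Chordc1, Hsph1, Hspd1 and Hspe1. All 4 rose, as did 16 of the 24. The windows of Hspd1 and Hspe1, which code for mitochondrial chaperonins, overlap and hold the same elements, read on opposite strands. These are therefore not separate matches. The lists were made up of known chaperone genes, so a share above that of all genes is no result about this comparison. A match is only a description of the letters in this window.

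GF saline libraries held 4874293 to 15318852 reads in genes, and Abx saline libraries 9357187 to 11966822 reads. Reads given to no gene made up 19.3% to 30.1% of the GF and 20.6% to 26.4% of the Abx libraries. GF saline replicate 1 stood apart. Its 15318852 reads compare with 4874293 to 8125276 reads in GF saline replicates 2 to 6, and on the first principal component (33.1% of the variance) it lay at -16.0 with the Abx libraries (-29.8 to -11.6), away from the other GF libraries (8.54 to 28.5). The main results are also given without it where it moves them.

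Of 24053 genes in the count table, 13875 were tested. At an adjusted p under 0.05 (edgeR quasi-likelihood test, Benjamini-Hochberg), 2278 of them (16.4%) differed between GF and Abx saline mice, 1304 higher (9.4%) and 974 lower (7.02%) in GF mice. Most changes were small: the median absolute log2 fold change of these genes was 0.40, and 95 changed over 2-fold. In 796 genes (5.74%) the groups did not overlap, with every GF library above every Abx library in 372 (2.68%) and below in 424 (3.06%). The count depended on the libraries. Without GF saline replicate 1 it was 3351 (24%), and 2188 of the 2278 genes passed again with the same sign. The count was 1047 without GF saline replicate 3, 1172 without GF saline replicate 6, 1470 without GF saline replicate 4, 1219 without Abx saline replicate 1 and 1340 without Abx saline replicate 2. Upper-quartile scaling, which moved the median of all genes by -0.04, turned the split to 1061 higher and 1468 lower. Fold changes followed GC content (Spearman rho -0.52 across genes) and gene length (rho 0.28), genes not being independent replicates, and after a correction for both 850 genes (6.17%) passed, 450 higher and 400 lower. Of the 2278 genes only 602 passed again with the same sign after this correction, and 73 had the other sign. Every list below is described by its counts beside these shares of all genes.

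The tissue label was checked against marker lists, beside 9.4% of all genes higher and 7.02% lower. In bulk tissue, more cells of a type and more RNA per cell cannot be told apart. Genes of medium spiny neurons, which make up most of the striatum, were high in both groups: their mean log2 CPM (CPM is a gene's counts scaled to the library's total) was 6.79 to 8.30 in GF libraries (median 7.86) and 7.20 to 8.20 in Abx libraries (median 7.96). The groups overlapped, and 0 of 20 members passed the threshold (edgeR; 1 at an unadjusted p under 0.05, 0 by DESeq2 and 0 by limma voom). Markers of neighbouring tissue varied more between libraries. The summed level of the cortical-type glutamatergic list was 1553 to 3352 CPM in GF and 2466 to 5195 CPM in Abx libraries. Its defining member Slc17a7, a vesicular glutamate transporter gene, had 2.41, 5.53 and 306 CPM as lowest, median and highest in GF libraries, against 73.8, 278 and 1248 CPM in Abx libraries. The 306 CPM were those of GF saline replicate 1, and 5 of 6 GF libraries lay below every Abx library (log2 fold change -2.67 ± 1.06, adjusted p = 0.0947, and -4.63 with adjusted p = 0.00636 without that library). In this list 0 members rose and 1 of 14 fell (7.14%), near the 7.02% of all genes that fell. The median log2 fold change was -1.07, however, with 1 positive value. At an unadjusted p under 0.05 (edgeR) 9 of the 14 differed. Without GF saline replicate 1, 7 fell. In 9 further fits, those without GF saline replicate 2, 3, 4, 5 or 6 or Abx saline replicate 1, 4, 5 or 6, 0 fell, and 1 rose without GF saline replicate 5. After the GC and length correction 0 passed. The hypothalamic and preoptic list was higher in GF libraries, at 637 to 1574 CPM against 661 to 1110 CPM in Abx libraries as a summed level. Of its 12 members 2 rose and 0 fell, against 9.4% and 7.02% of all genes. Without GF saline replicate 1, where 24% of all genes passed, 7 rose. In each fit without 1 of GF saline replicates 2, 3 and 6 or Abx saline replicates 1, 2, 4, 5 and 6, 1 rose. Crh, which codes for corticotropin-releasing hormone, had 4.32, 16.1 and 26.9 CPM in GF and 3.49, 5.82 and 7.68 CPM in Abx libraries (1.47 ± 0.35, adjusted p = 0.0164, and 0.32 with adjusted p = 0.273 under the covariates described below). The pituitary hormone gene Gh, too rarely counted to be tested, had 0 to 433 reads per GF library and 0 to 1 per Abx library. Of 9 septal markers 3 fell and 0 rose, against 7.02% and 9.4% of all genes. In each fit without 1 of GF saline replicates 2, 3, 4 and 6 or Abx saline replicates 4 and 5, 1 fell. With the cortical and hypothalamic levels as covariates, 1045 genes passed, and 713 of the 2278 genes passed again with the same sign. Under them 1 septal marker fell, and 0 hypothalamic and preoptic members rose and 1 fell. These covariates are the mean log2 CPM of the cortical and hypothalamic lists themselves. The values of their own members under them, such as that of Crh, therefore cannot show whether those members differed. After the GC and length correction 1 septal marker fell and 1 hypothalamic member rose.

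**Figure D1:**
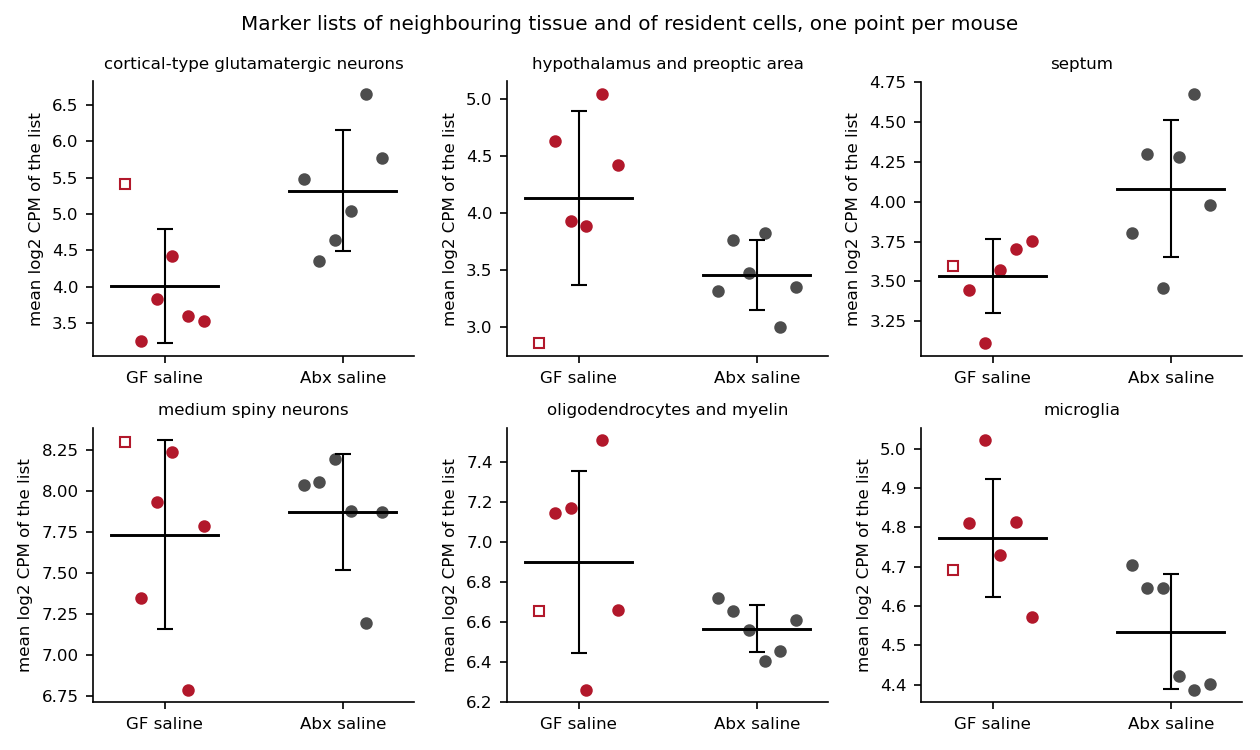
Mean log2 CPM of 6 marker lists in each library of GF saline and Abx saline mice. Points are libraries, the open square is GF saline replicate 1, and bars give the mean ± SD (n = 6 each). In the cortical-type panel 4 of 6 GF libraries lie below every Abx library, in the hypothalamic panel 5 of 6 lie above, and the groups overlap in the panel of medium spiny neurons.

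Many genes of ER chaperones were higher in GF saline mice. Of 38 members of the list of ER chaperones and the unfolded protein response, 19 rose and 1 fell, against 9.4% and 7.02% of all genes, with a median log2 fold change of 0.27. In 16 of the 38 members every GF library lay above every Abx library, against 2.68% of all genes. The mean log2 CPM of the list was 5.75 to 5.96 in GF libraries (median 5.86) and 5.57 to 5.67 in Abx libraries (median 5.60), so the groups did not overlap. Counts were 20 higher and 1 lower without GF saline replicate 1, 16 and 0 after the GC and length correction, and 17 and 0 with the cortical and hypothalamic covariates.

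Hspa5 codes for BiP, the main chaperone of the ER, which also holds the sensors of ER stress inactive. It had 525, 596 and 763 CPM (lowest, median, highest) in GF libraries, against 286, 307 and 363 CPM in Abx libraries. All GF libraries were above all Abx libraries, the mean being 619 ± 96.0 CPM in GF and 311 ± 28.6 CPM in Abx mice (SD, n = 6 each), a log2 fold change of 0.99 ± 0.10 (SE, adjusted p = 0.000309). The H2O saline mean was 320 ± 57.3 CPM. Xbp1, the gene of a transcription factor of the unfolded protein response, had 123, 150 and 158 CPM in GF and 83.6, 88.3 and 92.0 CPM in Abx libraries, with no overlap (0.70 ± 0.07, adjusted p = 0.000335). Its counts do not tell the spliced form from the unspliced one.

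Folding enzymes and their partners rose together with Hspa5. The disulphide isomerase gene Pdia6 had 142, 165 and 181 CPM in GF and 101, 104 and 110 CPM in Abx libraries (0.64 ± 0.07, adjusted p = 0.000335). Sdf2l1, whose product works in a complex with BiP, averaged 20.7 ± 4.27 CPM in GF and 8.66 ± 1.74 CPM in Abx mice (1.25 ± 0.16, adjusted p = 0.00125). Hsp90b1, the gene of the ER form of HSP90, averaged 531 ± 57.1 CPM in GF and 354 ± 14.1 CPM in Abx mice (0.59 ± 0.07, adjusted p = 0.0012). The isomerase genes Pdia4 (0.82) and Pdia3 (0.55), the lectin chaperone genes Calr (0.46) and Canx (0.26), Manf (0.50), which codes for a secreted ER stress protein, and the BiP co-chaperone gene Dnajc3 (0.45) rose as well. Except for Canx, the groups did not overlap for these genes. The Canx call was lost without GF saline replicate 3 or 6 or Abx saline replicate 2 (adjusted p of up to 0.0582), and its value after the GC and length correction was 0.06. In the other branch Atf4 and Ddit3 were not past the threshold. Atf4 averaged 117 ± 11.0 CPM in GF and 127 ± 14.9 CPM in Abx mice (-0.12, adjusted p = 0.362), Ddit3, which codes for the factor CHOP, 28.7 ± 2.70 CPM in GF and 29.6 ± 0.862 CPM in Abx mice (-0.05, adjusted p = 0.671). Trib3, a pseudokinase gene that ATF4 and CHOP induce, was the member that fell, with 0.399 to 2.57 CPM in GF and 1.64 to 4.53 CPM in Abx libraries (-1.26 ± 0.36, adjusted p = 0.0316). Its call was lost in 6 of the 12 fits that left out 1 library, with an adjusted p of up to 0.0764 without GF saline replicate 3.

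**Figure D2:**
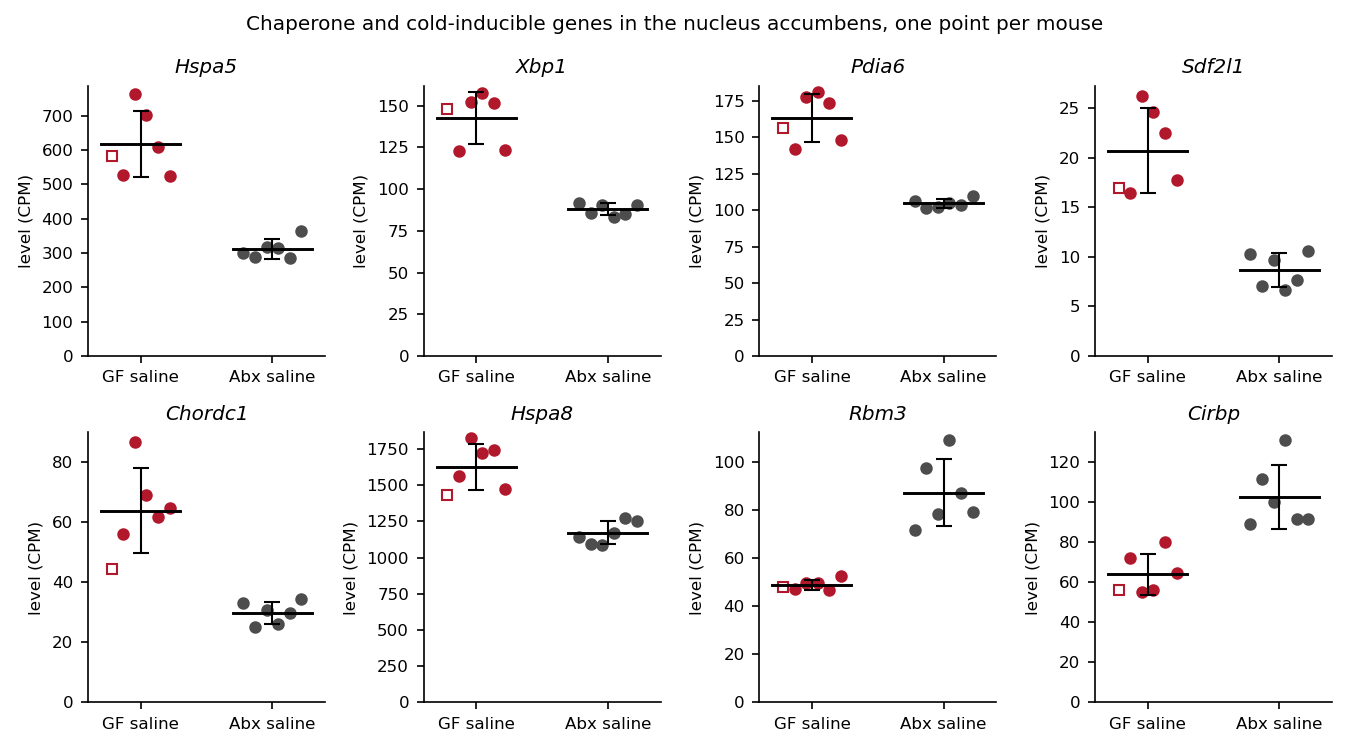
CPM of 8 genes in each library of GF saline and Abx saline mice. Points are libraries, the open square is GF saline replicate 1, and bars give the mean ± SD (n = 6 each). For the ER genes Hspa5, Xbp1, Pdia6 and Sdf2l1 and the cytosolic chaperone genes Chordc1 and Hspa8 every GF library lies above every Abx library, and for Rbm3 and Cirbp every GF library lies below.

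Most cytosolic chaperone genes tested were also higher in GF mice. Of 30 members of the heat-shock list, 19 rose and 0 fell, against 9.4% and 7.02% of all genes, with a median log2 fold change of 0.40. In 10 of the 30 every GF library lay above every Abx library, against 2.68% of all genes. The mean log2 CPM of the list was 6.32 to 6.71 in GF libraries (median 6.43) and 5.90 to 6.16 in Abx libraries (median 6.04), without overlap. Counts were 21 higher and 1 lower without GF saline replicate 1, 16 and 0 after the GC and length correction, and 18 and 0 with the cortical and hypothalamic covariates.

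The constitutive HSP70 gene Hspa8 had 1435, 1643 and 1828 CPM in GF libraries and 1091, 1159 and 1274 CPM in Abx libraries, with no overlap (0.48 ± 0.08, adjusted p = 0.00418). Chordc1, which codes for an HSP90 co-chaperone, had 44.4, 63.0 and 86.6 CPM in GF and 25.0, 30.2 and 34.4 CPM in Abx libraries. Its lowest GF library was replicate 1, still above every Abx library (1.09 ± 0.14, adjusted p = 0.0012). The value was 0.63 after the GC and length correction. Hspa4l, of the HSP110 family of nucleotide exchange factors, averaged 160 ± 24.1 CPM in GF and 89.3 ± 8.27 CPM in Abx mice (0.84 ± 0.10, adjusted p = 0.000612), and was 0.46 after that correction. The mitochondrial chaperonin partners Hspe1 (0.45 ± 0.07, adjusted p = 0.0031) and Hspd1 (0.35 ± 0.07, adjusted p = 0.00695), whose genes lie head to head, rose with no overlap between the groups in either. The small heat-shock gene Hspb1 (1.07), the J-protein gene Dnaja1 (0.57), Hsph1 (0.45) and the inducible HSP90 gene Hsp90aa1 (0.44) rose too. The stress-induced HSP70 gene Hspa1b had 4.36, 6.25 and 22.5 CPM in GF and 1.56, 2.42 and 7.53 CPM in Abx libraries (1.66 ± 0.51, adjusted p = 0.0409). The groups overlapped, and the call was lost in 9 of 12 fits that left out 1 library, with an adjusted p of up to 0.111 without GF saline replicate 3. Hsf1, the gene of the main heat-shock factor, averaged 45.3 ± 4.08 CPM in GF and 37.5 ± 4.49 CPM in Abx mice (0.27 ± 0.09, adjusted p = 0.0513), and passed without GF saline replicate 1 (0.0444) and without Abx saline replicate 6 (0.0420). Near-identical copies such as Hspa1a and Hspa1b can share reads, so the values of each are uncertain.

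The pair of cold-inducible RNA-binding proteins differed in the opposite direction. Rbm3 had 46.7, 48.7 and 52.4 CPM in GF libraries, against 71.9, 83.1 and 109 CPM in Abx libraries. The groups were well apart, and the GF libraries were close together (-0.83 ± 0.09, adjusted p = 0.000544). Cirbp had 55.0, 60.4 and 80.3 CPM in GF and 89.4, 96.0 and 131 CPM in Abx libraries, again with every GF library below every Abx library (-0.68 ± 0.12, adjusted p = 0.00469). Both fell in all 12 fits that left out 1 library, after the GC and length correction and with the covariates. H2O saline libraries averaged 56.0 ± 3.47 CPM of Rbm3 and 85.5 ± 7.18 CPM of Cirbp, values set here only as levels.

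Glucocorticoid-induced genes were higher in part. Of 27 members 5 rose and 0 fell, against 9.4% and 7.02% of all genes, with a median of 0.17. The mean log2 CPM of the list was 5.18 to 5.45 in GF libraries (median 5.26) and 4.81 to 5.20 in Abx libraries (median 5.04), and 5 of 6 GF libraries lay above every Abx library. Counts were 4 higher and 1 lower without GF saline replicate 1, 8 and 0 after the GC and length correction, and 7 and 0 with the cortical and hypothalamic covariates. Tsc22d3, the gene of the leucine zipper protein GILZ, had 115, 151 and 199 CPM in GF and 51.3, 77.7 and 91.9 CPM in Abx libraries, with no overlap (1.03 ± 0.15, adjusted p = 0.00283). Pdk4, which codes for a kinase that turns off pyruvate dehydrogenase, had 21.9, 23.7 and 27.7 CPM in GF and 10.8, 13.3 and 17.3 CPM in Abx libraries (0.83 ± 0.11, adjusted p = 0.00143). The kinase gene Sgk1 had 170, 191 and 257 CPM in GF and 103, 129 and 168 CPM in Abx libraries (0.62 ± 0.13, adjusted p = 0.0113), and these groups did not overlap either. Zbtb16, a zinc-finger transcription factor gene, averaged 39.5 ± 10.2 CPM in GF and 15.6 ± 10.8 CPM in Abx mice (1.33 ± 0.33, adjusted p = 0.0179), and 3 of 6 GF libraries exceeded every Abx library. Arl4d (0.45, adjusted p = 0.0445) was the fifth, and its call was lost in 9 of 12 fits that left out 1 library (up to 0.0911, without GF saline replicate 4). Other classical targets were not past the threshold. Fkbp5, whose product holds back the glucocorticoid receptor, had 60.0, 76.7 and 101 CPM in GF and 69.1, 75.3 and 106 CPM in Abx libraries (-0.02, adjusted p = 0.942), and the perilipin gene Plin4 averaged 21.7 ± 11.2 CPM in GF and 17.2 ± 13.5 CPM in Abx mice (0.30, adjusted p = 0.667).

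**Figure D3:**
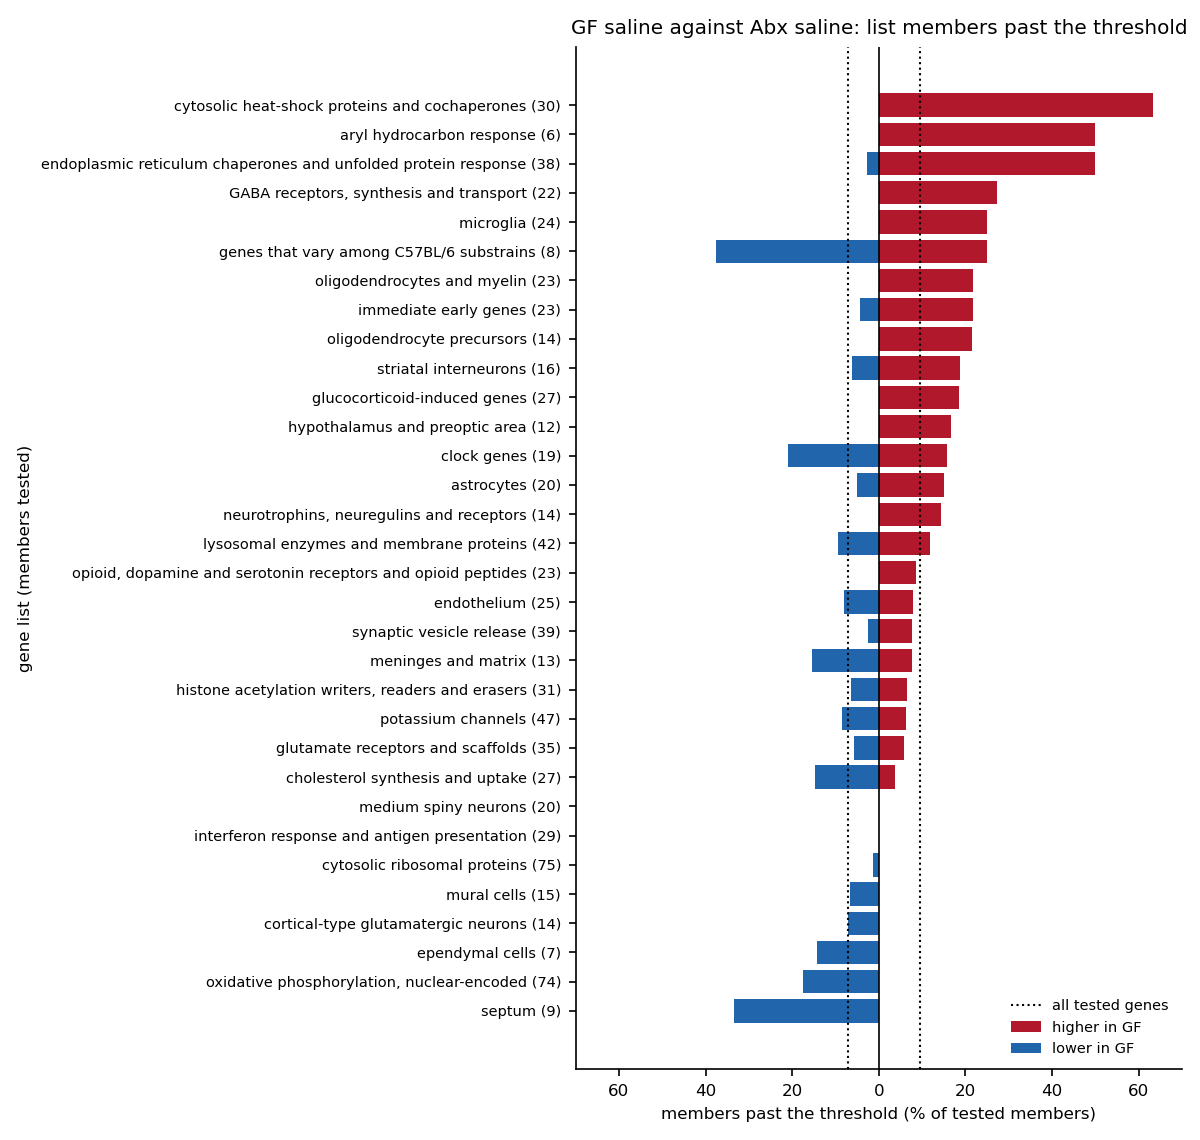
Share of the tested members of each gene list, among lists with at least 5 tested members, that were higher (red, to the right) or lower (blue, to the left) in GF saline than in Abx saline mice. Dotted lines mark the shares over all tested genes, 9.4% higher and 7.02% lower, and the number of tested members stands after each name. The heat-shock list reaches 19 of 30 members higher and the ER list 19 of 38.

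Outside the lists, the genes with the smallest p covered a range of functions. Arrdc3, an arrestin-domain gene that takes part in receptor trafficking, had 68.4, 85.8 and 97.2 CPM in GF and 45.2, 48.2 and 51.2 CPM in Abx libraries (0.79 ± 0.08, adjusted p = 0.000309). Etv1, an ETS transcription factor gene, had 44.4, 53.0 and 62.6 CPM in GF and 26.3, 29.4 and 32.5 CPM in Abx libraries (0.86 ± 0.09, adjusted p = 0.000391). In both, no GF library reached into the Abx range. Among the genes with the largest rises and no overlap were Cml5 (1.84), the histone gene Hist1h2be (1.38), the synaptotagmin-like gene Sytl5 (1.20), the kinase gene Map3k19 (1.11) and the innate immune receptor genes Tlr7 (1.09) and Tlr4 (1.07). Tlr7 had 3.31 to 7.98 CPM in GF and 1.86 to 3.08 CPM in Abx libraries, and Tlr4, near the lower limit of what was tested, 1.42 to 2.82 CPM in GF and 0.437 to 1.25 CPM in Abx libraries.

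Ide, the gene of the insulin-degrading enzyme, had the smallest p among the genes that fell, with 47.5, 51.3 and 54.4 CPM in GF libraries, against 76.6, 93.3 and 102 CPM in Abx libraries (-0.82 ± 0.08, adjusted p = 0.000309). Hes5, a transcriptional repressor gene, had 12.6, 13.3 and 20.1 CPM in GF and 22.8, 35.2 and 41.9 CPM in Abx libraries, the highest GF value being that of replicate 1 (-1.19 ± 0.16, adjusted p = 0.00154). Dll4, a ligand gene of vessels, had 1.52 to 2.41 CPM in GF and 3.27 to 5.19 CPM in Abx libraries (-1.05 ± 0.16, adjusted p = 0.00317). Wnt7b, which codes for a secreted signalling protein (-1.15 ± 0.24, adjusted p = 0.01001), and the scaffold gene Axin2 (-0.44 ± 0.06, adjusted p = 0.00271) fell, with no overlap in either. Rcor2 (-1.30), a corepressor gene, the transcription factor genes Pax6 (-1.15) and Sox12 (-0.60), the desmosome gene Dsg2 (-1.16), Cln6 (-0.77), which codes for an ER membrane protein, and the semaphorin gene Sema4b (-0.57) fell too, each with all GF libraries below all Abx libraries. With the cortical and hypothalamic covariates Wnt7b stood at -0.60, Pax6 at -0.67 and Dsg2 at -0.83, the last no longer past the threshold (adjusted p = 0.0754).

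**Figure D4:**
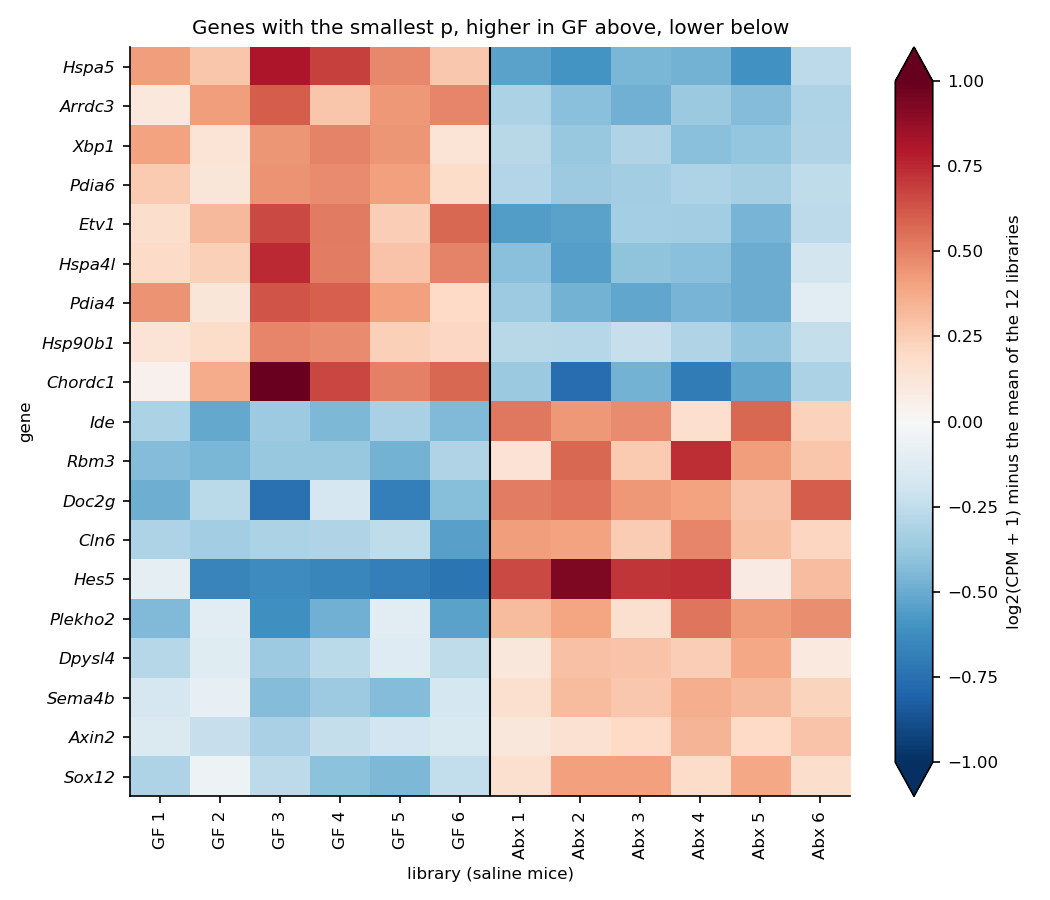
Levels of 19 genes, 9 of them higher and 10 lower in GF mice, that were among those with the smallest p where either group averaged 5 CPM or more, as log2(CPM + 1) minus the mean of the 12 libraries, with GF saline libraries on the left and Abx saline libraries on the right. Colours end at 1 and -1, GF saline replicate 1 is the first column, and in all 19 genes the groups do not overlap.

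GABA is the inhibitory transmitter that medium spiny neurons both use and receive. In the list of its receptors, synthesis and transport 6 of 22 members rose, 16 did not pass and 0 fell, against 9.4% higher and 7.02% lower among all genes, with a median of 0.20. Gabra2, which codes for the alpha-2 subunit of the GABA-A receptor, had 39.9, 57.3 and 72.2 CPM in GF and 26.7, 32.2 and 38.3 CPM in Abx libraries (0.80 ± 0.14, adjusted p = 0.00589). Gabrb2, a beta subunit gene, had 182, 282 and 394 CPM in GF and 151, 167 and 178 CPM in Abx libraries (0.80 ± 0.14, adjusted p = 0.00607), with its lowest value above every Abx library. The beta subunit gene Gabrb1 (0.48) and Gad1 (0.20), the gene of a GABA-making enzyme, also passed. The Gabrb1 call was lost in 7 and the Gad1 call in 9 of the 12 fits that left out 1 library. The list's count was 3 without any one of GF saline replicates 3 and 6 or Abx saline replicates 1, 2 and 3, and 9 without GF saline replicate 1. After the GC and length correction 2 members passed as higher, with Gabra2 at 0.41 and Gabrb2 at 0.65, and with the covariates 2.

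Other neuronal lists moved little, beside 9.4% higher and 7.02% lower among all genes. Of 35 genes of glutamate receptors and their scaffolds 2 rose and 2 fell. Gria4, an AMPA receptor subunit gene, rose by 0.55 ± 0.08 (adjusted p = 0.0031). Without GF saline replicate 5, 8 members rose. With the cortical and hypothalamic covariates 6 rose and 1 fell, and after the GC and length correction 2 rose and 0 fell. Of 47 potassium channel genes 3 rose and 4 fell, led by Kcnn2, a calcium-activated channel gene with 19.1 to 24.1 CPM in GF and 9.22 to 17.1 CPM in Abx libraries (0.84 ± 0.13, adjusted p = 0.0031). The 3 became 1 without GF saline replicate 3 or 6 or Abx saline replicate 1, 2 or 3, 5 without GF saline replicate 1, 8 without GF saline replicate 5, 1 after the GC and length correction and 7 with the covariates. The 4 became 0 to 2 without any one of GF saline replicates 2 to 6 or Abx saline replicates 1, 3, 5 and 6, and 1 under both the correction and the covariates. In the list of opioid, dopamine and serotonin receptors and opioid peptides 2 of 23 rose and 0 fell. These were the serotonin receptor gene Htr1b and the mu opioid receptor gene Oprm1. Htr1b had 12.6, 23.8 and 29.4 CPM in GF and 4.91, 11.1 and 15.6 CPM in Abx libraries (1.07 ± 0.25, adjusted p = 0.0152). Oprm1 had 4.96, 7.63 and 11.0 CPM in GF and 1.64, 4.03 and 7.53 CPM in Abx libraries (0.89 ± 0.28, adjusted p = 0.0456). The groups overlapped for both, and Oprm1 lost its call in 9 of 12 fits that left out 1 library (up to 0.108, without GF saline replicate 6), and the list's count was then 1, except without GF saline replicate 1. After the GC and length correction 1 member of the list rose. The dopamine receptor genes Drd2 (0.02 ± 0.29) and Drd1a (-0.01 ± 0.26), the enkephalin gene Penk (0.02 ± 0.19), the dynorphin gene Pdyn (-0.11 ± 0.22) and the kappa receptor gene Oprk1 (0.07 ± 0.24) were near 0, with adjusted p of 0.753 to 0.981 and wide standard errors.

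Genes of immediate early response, which follow recent neuronal activity, were mixed, with 5 of 23 higher and 1 lower and a median of 0.19. Among all genes 9.4% were higher and 7.02% lower. Fosb averaged 37.6 ± 10.6 CPM in GF and 20.8 ± 2.79 CPM in Abx mice (0.87 ± 0.17, adjusted p = 0.00709), and the nuclear receptor gene Nr4a3 30.8 ± 5.91 CPM in GF and 17.8 ± 3.58 CPM in Abx mice (0.80 ± 0.15, adjusted p = 0.00637). Fos averaged 29.6 ± 10.3 CPM in GF and 26.3 ± 17.6 CPM in Abx mice (0.19, adjusted p = 0.732), with 1.11 and adjusted p = 0.0244 under the covariates. Without GF saline replicate 1 the counts were 3 higher and 4 lower, and 3 also rose in the fits without GF saline replicate 3, 4 or 6 or any Abx saline replicate but 5. With the covariates 11 rose and 0 fell, and after the GC and length correction 4 rose and 0 fell. In the clock list 3 of 19 members rose and 4 fell, and 2 fell without GF saline replicate 6. The repressor gene Nr1d1 fell (198 ± 20.1 CPM in GF and 256 ± 12.8 CPM in Abx mice, -0.37 ± 0.07, adjusted p = 0.00682), as did the output gene Dbp (-0.52, lost without GF saline replicate 6 at 0.0504), while the activator genes Arntl (0.45) and Clock (0.44) rose. The list held 1 higher and 1 lower member after the GC and length correction, and 3 and 2 with the covariates. The hour of dissection is not in the labels used here.

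Markers of glia were partly higher in GF mice. Of 23 oligodendrocyte and myelin genes 5 rose and 0 fell, against 9.4% and 7.02% of all genes, with a median of 0.38. Ugt8a, which codes for the enzyme that makes the myelin lipid galactocerebroside, had 51.7, 71.9 and 101 CPM in GF and 31.9, 36.1 and 39.9 CPM in Abx libraries, with no overlap (1.002 ± 0.14, adjusted p = 0.00185). Ermn (0.85), a cytoskeletal gene of myelinating cells, Klk6 (0.80), a protease gene, and Enpp2 (0.57) rose, and Enpp2 lost its call without GF saline replicate 3 (0.0536). The major myelin gene Mbp had 1170, 2640 and 4618 CPM in GF and 2359, 2468 and 2590 CPM in Abx libraries, so that GF libraries lay on both sides of a narrow Abx range (0.11 ± 0.25, adjusted p = 0.797). The summed level of the list was 4881 to 13467 CPM in GF and 6297 to 7373 CPM in Abx libraries. The list's count was 3 without GF saline replicate 3, 11 without GF saline replicate 4, 3 after the GC and length correction and 2 with the covariates.

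Of 24 microglia genes 6 rose and 0 fell, against 9.4% and 7.02% of all genes, with a median of 0.20 and 21 positive values. In the mean level of the list 4 of 6 GF libraries lay above every Abx library. Tmem119, a gene specific to microglia among brain cells, had 28.2, 35.3 and 42.3 CPM in GF and 22.3, 27.5 and 31.8 CPM in Abx libraries (0.38 ± 0.10, adjusted p = 0.0250), and lost its call without Abx saline replicate 2 (0.0551). Gpr34, a lysophospholipid receptor gene, averaged 9.42 ± 5.78 CPM in GF and 3.79 ± 0.872 CPM in Abx mice (1.31 ± 0.37, adjusted p = 0.0296). Its call was lost in 7 of 12 fits that left out 1 library, up to 0.0803 without GF saline replicate 3. The list's count was 1 without GF saline replicate 3, 2 without Abx saline replicate 5 or 6, 3 without GF saline replicate 4 or Abx saline replicate 2 or 4, 3 after the GC and length correction and 1 with the covariates. Among 20 astrocyte genes 3 rose and 1 fell, not far from the shares of all genes. The water channel gene Aqp4 had 66.4, 78.0 and 102 CPM in GF and 52.4, 56.6 and 64.7 CPM in Abx libraries, with no overlap (0.49 ± 0.10, adjusted p = 0.0103, and 0.22 with adjusted p = 0.112 after the GC and length correction). Without GF saline replicate 1, 6 astrocyte genes rose, and 1 did without GF saline replicate 6 or Abx saline replicate 1. After the GC and length correction 0 rose and 2 fell, and with the covariates 1 rose and 1 fell.

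In the lists of vessel cells few members passed, with 9.4% higher and 7.02% lower among all genes. Of 15 mural genes 1 fell and 0 rose, and 4 fell with the covariates. The 1 that fell was the pericyte receptor gene Pdgfrb, with 23.1, 27.9 and 30.7 CPM in GF and 35.1, 41.5 and 46.3 CPM in Abx libraries and no overlap (-0.58 ± 0.09, adjusted p = 0.00283). Of 25 endothelial genes 2 fell and 2 rose, and 0 or 1 rose without any one library other than GF saline replicates 1 and 4, while 1 fell without GF saline replicate 3, 4 or 6 or Abx saline replicate 1 or 2. In this list 2 rose and 3 fell after the GC and length correction, and 0 rose and 3 fell with the covariates. Clec14a, a C-type lectin gene of the endothelium, had 1.01 to 2.86 CPM in GF and 2.95 to 5.93 CPM in Abx libraries (-1.24 ± 0.26, adjusted p = 0.0107). The tight-junction gene Cldn5 averaged 22.3 ± 4.10 CPM in GF and 31.4 ± 5.67 CPM in Abx mice (-0.50 ± 0.14, adjusted p = 0.0296), with its call lost in 5 of 12 fits that left out 1 library (up to 0.0719, without Abx saline replicate 1). Cd248, a gene of perivascular and meningeal stromal cells, had 1.503 to 2.79 CPM in GF and 3.42 to 5.10 CPM in Abx libraries (-0.97 ± 0.18, adjusted p = 0.00637).

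Of 74 nuclear genes of oxidative phosphorylation 13 fell and 0 rose, with a median of -0.10 and negative values in 57. Among all genes 7.02% fell and 9.4% rose. Cox6a1, a subunit gene of cytochrome c oxidase, averaged 215 ± 20.3 CPM in GF and 265 ± 18.0 CPM in Abx mice, with no overlap (-0.30 ± 0.07, adjusted p = 0.0172). The count moved with the correction for GC content and length: 1 then fell, and Cox6a1 stood at -0.00. With the covariates 1 fell. The count was 2 without GF saline replicate 3 or 6 or Abx saline replicate 1, 4 without Abx saline replicate 2, 7 without Abx saline replicate 4 or 5, 8 without GF saline replicate 4 or Abx saline replicate 3, 20 without GF saline replicate 1 and 21 without GF saline replicate 5. Among 75 cytosolic ribosomal protein genes 1 fell and 0 rose, while 3 fell without GF saline replicate 1 and 9 without GF saline replicate 5. In the cholesterol list 4 of 27 members fell and 1 rose, and 2 fell without GF saline replicate 3 or 6 or Abx saline replicate 1 or 4. With the covariates 2 fell and 2 rose, and after the GC and length correction 2 fell and 0 rose. In the interferon and antigen presentation list 0 of 29 passed (edgeR; 5 at an unadjusted p under 0.05, 2 by DESeq2 and 4 by limma voom). Of 6 tested genes of the aryl hydrocarbon response, a receptor for dietary and microbial compounds among others, 3 rose and 0 fell. Tiparp averaged 34.2 ± 10.9 CPM in GF and 21.8 ± 4.08 CPM in Abx mice (0.66 ± 0.19, adjusted p = 0.0332) and Cyp1b1 1.68 ± 0.617 CPM in GF and 0.873 ± 0.277 CPM in Abx mice (0.93 ± 0.28, adjusted p = 0.0374), with calls lost in 7 and 9 of 12 fits that left out 1 library. The list's count was 1 without GF saline replicate 3 or 4 or Abx saline replicate 1, 5 or 6, 1 after the GC and length correction and 0 with the covariates.

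Genes that are known to differ among C57BL/6 substrains were looked at because GF and Abx mice came from separate colonies. Nnt, a mitochondrial transhydrogenase gene in which C57BL/6J mice carry a deletion, averaged 24.1 ± 1.64 CPM in GF and 19.1 ± 1.60 CPM in Abx mice (0.34 ± 0.08, adjusted p = 0.0134). Ide, Entpd4 (-0.61) and Fgfbp3 (-0.74) fell and Gabra2 rose, so that 2 of 8 tested members rose and 3 fell, against 9.4% and 7.02% of all genes. Entpd4 and Fgfbp3 lost their call in 5 and 6 of 12 fits that left out 1 library, and the list then held 1 lower member without GF saline replicate 3 or 6 or Abx saline replicate 1 or 2. After the GC and length correction 2 members rose and 1 fell, and with the covariates 1 rose and 1 fell. Substrain was not tested in any other way. Xist, the transcript of the inactive X chromosome, had 0 to 4 reads per GF library and 0 to 3 per Abx library. The Y-linked gene Ddx3y had 49.8 to 69.9 CPM in GF and 36.5 to 52.7 CPM in Abx libraries, with reads in all 12 libraries. Of 4 tested sex-linked genes 3 rose, Ddx3y among them, and 0 fell, against 9.4% and 7.02% of all genes. Fits that left out 1 library gave 2 to 3 higher. After the GC and length correction 0 passed, as with the covariates.

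The same contrast in morphine mice uses other animals and shares no library with the one in saline mice. Of 13914 genes tested in 5 GF and 5 Abx morphine mice, 3637 passed (26.1%), 1860 higher (13.4%) and 1777 lower (12.8%). Among 13770 genes tested in both, 1083 passed in both with the same sign, 597 higher and 486 lower, which is 47.6% of the saline calls and 30.0% of the morphine calls, and 7 passed with opposite signs. Of the saline calls, 91.7% had the same sign in morphine mice, against 70.3% of all genes. The breeding colony and the pattern of neighbouring tissue were shared by both contrasts: Slc17a7 averaged 3.93 CPM in GF morphine and 477 CPM in Abx morphine mice.

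Chaperone genes differed in morphine mice too. In the heat-shock list 22 of 30 rose and 0 fell, and in the ER list 18 of 38 rose and 4 fell. Among all genes tested in morphine mice 13.4% rose and 12.8% fell. Hspa5 averaged 568 CPM in GF morphine and 270 CPM in Abx morphine mice (1.07 ± 0.07, adjusted p = 4.57e-06). Chordc1 averaged 57.5 CPM in GF morphine and 19.7 CPM in Abx morphine mice (1.54 ± 0.11, adjusted p = 4.89e-06). Rbm3 averaged 50.5 CPM in GF morphine and 113 CPM in Abx morphine mice (-1.17 ± 0.09, adjusted p = 6.13e-06). Of the glucocorticoid-induced genes 2 of 27 rose and 11 fell in morphine mice, with a median of -0.21 against 0.17 in saline mice. Plin4 averaged 17.5 CPM in GF morphine and 56.1 CPM in Abx morphine mice (-1.70 ± 0.19, adjusted p = 0.000142), and Fkbp5 73.6 CPM in GF morphine and 134 CPM in Abx morphine mice (-0.86 ± 0.12, adjusted p = 0.000356).

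**Figure D5:**
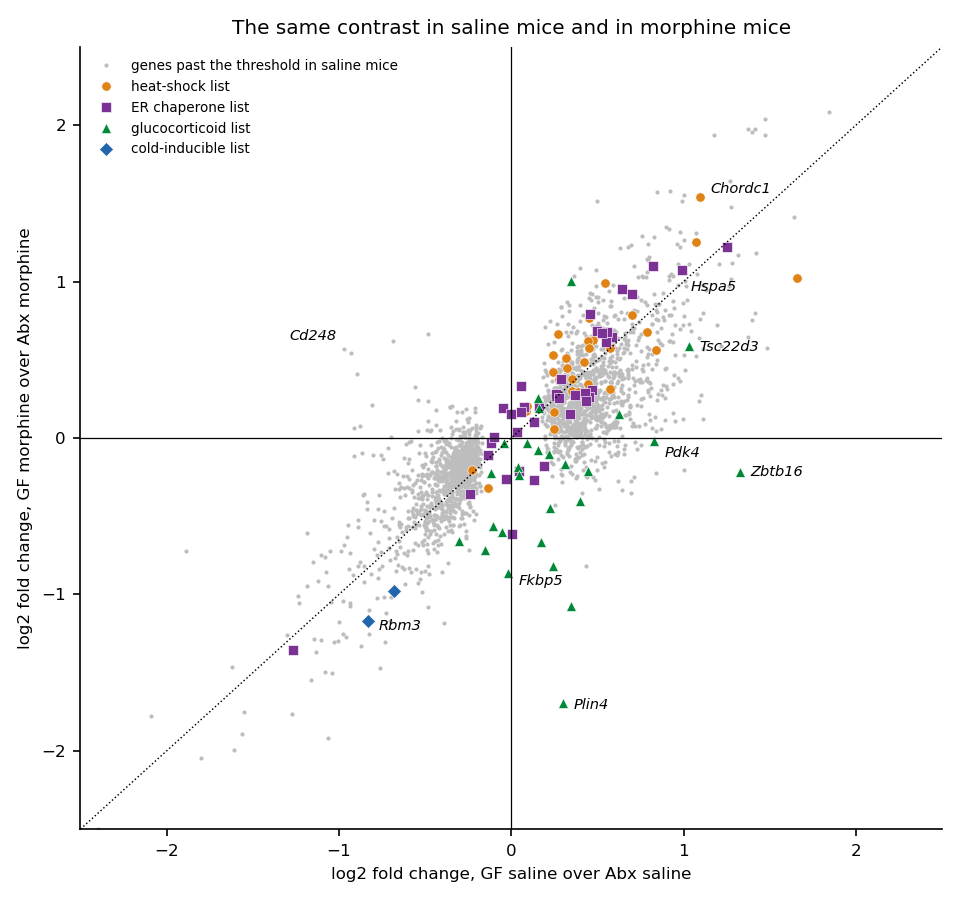
Log2 fold change of GF over Abx in saline mice (horizontal) and in morphine mice (vertical) for genes past the threshold in saline mice (grey), with all tested members of 4 lists in colour. The dotted line marks equal values, and 5 grey genes lie outside the axes. Heat-shock and ER members lie mostly in the upper right, Rbm3 and Cirbp in the lower left, and glucocorticoid-induced genes reach below 0 on the vertical axis.

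Whether the difference between GF and Abx mice itself differed between saline and morphine mice was tested as an interaction over 22 libraries. Of 14326 genes 43 passed (0.3%), 21 with the higher value in saline mice and 22 with the lower. Of the 27 glucocorticoid-induced genes 3 passed, Pdk4, Fkbp5 and Cdkn1a. Pdk4 was 0.83 in saline and -0.02 in morphine mice (difference 0.85 ± 0.16, adjusted p = 0.0298). Fkbp5 was -0.02 in saline and -0.86 in morphine mice (difference 0.85 ± 0.19, adjusted p = 0.0450), and Cdkn1a, a cell-cycle inhibitor gene, 0.24 in saline and -0.82 in morphine mice (difference 1.06 ± 0.19, adjusted p = 0.0211). Cd248 was -0.97 in saline and 0.57 in morphine mice (difference -1.54 ± 0.26, adjusted p = 0.0164), and Serpinh1, which codes for a collagen chaperone of the ER, 0.50 in saline and 1.52 in morphine mice (difference -1.02 ± 0.19, adjusted p = 0.0253). The DNA repair gene Xpc was -0.39 in saline and -1.18 in morphine mice (difference 0.79 ± 0.14, adjusted p = 0.0206). In the heat-shock list 0 of 30 members passed this test with edgeR (5 at an unadjusted p under 0.05, 0 by DESeq2 and 0 by limma voom), and in the ER list 0 of 38 (5 at an unadjusted p under 0.05, 2 by DESeq2 and 1 by limma voom), which does not show that their values were equal. The number of genes that passed depended on single libraries: it was 6 without Abx saline replicate 1 or GF morphine replicate 1 and 157 without GF saline replicate 5, the lowest and highest of 22 such fits.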

How the data were processed

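The authors deposited a table of raw read counts per gene for 33 libraries of nucleus accumbens RNA. Per the labels' protocols, polyadenylated RNA was amplified with a SMARTer kit, and the submitters' processing notes name FastQC, STAR 2.4.0 and edgeR. The genome build of the alignment, the counting tool and its use of strand are not stated in the labels, so overlapping genes may share reads. Rows of unassigned reads were left out, and of 27 gene names turned into dates 19 were restored and 8 left out. Genes were tested in edgeR 4.0.16 (R 4.3.3) by the quasi-likelihood test, with TMM factors, filterByExpr at a minimum count of 10 and Benjamini-Hochberg adjustment over all genes tested, on the 6 GF saline and 6 Abx saline libraries, and likewise for morphine mice and for the difference between both contrasts. Fold changes are log2, GF over Abx, ± standard error. Levels are CPM with TMM factors over all 33 libraries, and the mean level of a list uses log2 CPM with a prior count of 2. DESeq2 1.42.0, limma 3.58.1 voom, other scalings and filters, covariates for neighbouring tissue, a GC and length correction and fits without single libraries were tried. Nothing says that libraries of a group came from separate cages, so p-values measure the spread between these libraries. Libraries of a group differed by more than sampling noise.

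Genes were named by rule: the 12 largest fold changes each way among genes that passed, with 2 CPM or more on average in either group and no overlap, the 10 smallest p each way with at least 5 CPM (both without gene models, pseudogenes, ribosomal protein and mitochondrial genes), up to 4 smallest p per list, a set of receptor, peptide and marker genes, and the 6 smallest p each way for the difference between contrasts. Of the genes so eligible a part is described, some are not reported here, and 22 further list members in the text were chosen after their values were seen. The comparison and the lists were chosen with earlier results of these data known. The authors also deposited a table of normalised signal values, whose scaling is not stated in the labels, and it was not used.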

Additional observations from a re-analysis of the deposited data

Results flagged for a closer look

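Of 270 values tested for a library far from the others of its group, 14 were flagged, close to the share of about 1 in 20 that chance flags. The flags are therefore given only as descriptions of these libraries. Abx saline replicate 5 was low in markers of medium spiny neurons: Drd1a had 139 CPM there and 239 to 280 CPM in the other Abx libraries, Drd2 69.1 CPM against 120 to 159 CPM, Pdyn 182 CPM against 313 to 425 CPM, and the mean log2 CPM of the list was 7.20 against 7.87 to 8.20. The same library was high in the mean log2 CPM of immediate early genes, with 5.47 against 4.66 to 4.93. In GF saline replicate 1 Hes5 had 20.1 CPM, while the other GF libraries had 12.6 to 13.5 CPM. In GF saline replicate 6 Cln6 had 5.51 CPM, the others 6.46 to 6.98 CPM, and in GF saline replicate 5 the mean log2 CPM of glucocorticoid-induced genes was 5.45, the others 5.18 to 5.28. Abx saline replicate 4 was high in Hspd1 (181 CPM, the others 166 to 171 CPM) and Dnajc3 (69.4 CPM, the others 54.2 to 59.2 CPM). Abx saline replicate 6 was high in Gabrb1 (23.5 CPM, the others 16.6 to 17.7 CPM) and low in Serpinh1 (14.2 CPM, the others 16.8 to 18.3 CPM). Abx saline replicate 1 was high in Cdkn1a (29.5 CPM, the others 23.3 to 24.9 CPM) and in the mean log2 CPM of meningeal and matrix genes (4.28, the others 3.05 to 3.37).

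The difference between GF and Abx mice itself differed between saline and morphine mice (edgeR, adjusted over all genes) for 13 genes of the text or of the naming rule. On the log2 scale, saline minus morphine, it was 0.85 for Pdk4, 0.85 for Fkbp5, 1.06 for Cdkn1a, 0.79 for Xpc, 1.25 for Adamts20, 2.94 for Wnt10b and 1.46 for Pcolce2. It was -1.54 for Cd248, -1.02 for Serpinh1, -0.51 for Tufm, -0.71 for Pycrl, -1.14 for Etv4 and -0.53 for Hexa.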

How the results depend on the processing

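The count of genes that differed between GF and Abx saline mice, 2278 (1304 higher, 974 lower), stayed within 1.5 times of itself with DESeq2 (2999), RLE factors (2299), upper-quartile factors (2529, of which 1468 lower), no filter (1807) and a 1 CPM filter (2269). It was 4117 (2235 and 1882) with limma voom, 3990 (2103 and 1887) in a fit of all 33 libraries, 1045 (616 and 429) with the tissue covariates and 850 (450 and 400) after the GC and length correction. Leaving out 1 library gave 1047 to 3351 genes, 627 to 1837 higher and 420 to 1514 lower. Leaving out GF saline library 1 and Abx saline library 6 together, chosen after seeing the data, gave 3055. GF and Abx saline libraries with the same replicate number correlated at -0.00240 to 0.232 (mean 0.141 over 6 pairs), each gene taken relative to its group mean. Libraries with unlike numbers were not compared, so whether the numbers stand for pairs was not tested. The replicate block gave 2430 genes in saline mice and 1476 (763 and 713) in morphine mice, against 3637. The morphine count was 2555 to 3968 without 1 library, with 1286 to 2025 higher and 1258 to 1949 lower. For the difference between both contrasts, 43 became 248 (114 and 134) with DESeq2, 391 (203 and 188) with limma voom, 313 (131 and 182) in the fit of all libraries, 21 (10 and 11) without a filter, and 6 to 157 without 1 library, 3 to 91 higher and 2 to 66 lower. The cause was not tested.

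Signs turned for the following genes, none of which passed the test. Atf4 was 0.017 with the covariates and 0.022 after the GC and length correction, and -0.16 to -0.060 without 1 library. Fkbp5 was 0.0069 with limma voom, 0.18 with the covariates and 0.036 after the correction, and -0.097 to 0.068 without 1 library. Drd1a was 0.031 with the covariates and -0.15 to 0.15 without 1 library. Drd2 was -0.12 with limma voom, -0.029 with upper-quartile factors, -0.080 with the replicate block, -0.22 without both libraries and -0.20 to 0.18 without 1. Penk was -0.024 with upper-quartile factors, -0.085 with the covariates, -0.047 without both libraries and -0.096 to 0.13 without 1. Pdyn was -0.24 to 0.012 without 1 library. Oprk1 was -0.0071 with the covariates, -0.21 after the correction, -0.086 without both libraries and -0.059 to 0.19 without 1. Fos was -0.053 without both libraries, and 0.038 to 0.61 without 1. Mbp was -0.065 with limma voom, -0.041 with the block, -0.38 with the covariates and -0.13 to 0.26 without 1 library. Of 83 called genes in the text, 67 passed in all 12 fits without 1 library. The call was lost for 22 of the 83 after the GC and length correction, and for 20 with the covariates.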
